A study of Mus musculus with 58 samples.

Results

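The genes examined here encode the proteasome subunits and the factors that assemble, open or block them. Members were chosen by symbol, as every gene named *Psma* to *Psmg* followed by a digit, leaving out symbols marked as pseudogenes, and the rule gave 49 of the 31246 genes listed for each region. The same 49 were listed for the entorhinal cortex (EC) and for the primary visual cortex (PVC). The label was right for 48 of them. *Psmc3ip* matched by its symbol but encodes a cofactor of recombination in meiosis, and its values are given apart.

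RNA-sequencing was carried out on bulk tissue dissected from both regions of male C57Bl/6 mice aged 14 to 15 months. There were 10 *APOE3/3* and 19 *APOE3/4* mice, and the same 29 animal numbers were listed for both regions. All of these mice, the *APOE3/3* mice included, were *APOE* targeted replacement animals, in which human *APOE* is expressed from the promoter of the mouse gene. The methods name 2 separate colonies for the mice of the whole study. They do not say from which colony the sequenced mice came. No mice with the mouse *Apoe* gene were part of this comparison. The files gave 1 mean normalised count per gene and region, averaged by the authors over the 29 libraries of the region and over both genotypes. The values therefore have no SD and no replicate test, and no comparison of the genotypes was made here.

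The proteasome degrades proteins that carry ubiquitin chains. Its 20S core is a barrel of alpha rings, which form the gate, and beta rings, which hold the catalytic sites. The 19S cap recognises ubiquitin, removes it and threads the unfolded protein into the core by means of a ring of ATPases. Interferon induces replacement catalytic subunits that form the immunoproteasome, and a shortage of proteasome activity induces the subunit genes through the transcription factor NFE2L1. In neurons, which do not divide, proteasomes take part in protein quality control and in turnover of synaptic proteins.

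Proteasome genes stood high among the genes of both regions. The level is given here as the mean normalised count per 1000 bases of exon, which allows genes of unequal length to be set side by side, and a gene was taken as detected at a mean normalised count of at least 10. All 49 members were detected in the EC, and all but *Psma8* in the PVC, beside 16941 and 15682 genes in all. The median level of the members was 999.9 in the EC versus 586 in the PVC, against a median of 266 and 167 over the detected genes with a known exon length. In percentile terms the median member stood at 82.1 in both regions. In the EC 43 members, and in the PVC 41, were above the median gene, and 14 and 12 members were above the 90th percentile. Together the members took up 0.277% of all normalised counts in the EC versus 0.281% in the PVC.

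**Figure D1:**
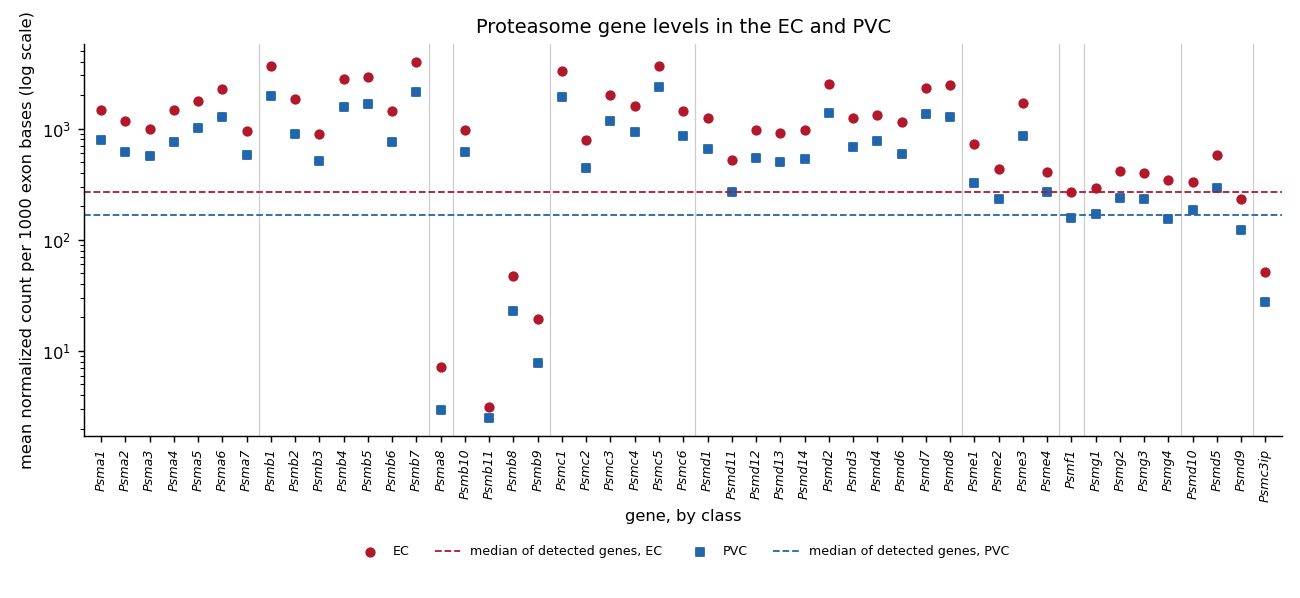
Level of each of the 49 genes in the EC (circles) and the PVC (squares), as mean normalised count per 1000 exon bases on a log scale, with genes ordered by class and grey lines between classes. Points are the authors' means over 29 libraries and have no error bars, and dashed lines give the median of the detected genes. Subunits of the core and cap lie above the dashed lines, while *Psma8*, *Psmb8*, *Psmb9*, *Psmb11* and *Psmc3ip* lie far below them.

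The 20S core is built from *Psma1* to *Psma7* in the alpha rings and *Psmb1* to *Psmb7* in the beta rings, and all 14 of these genes were above the median gene in both regions. The alpha ring genes had a median level of 1471 in the EC versus 755 in the PVC. *Psma6* was the highest of them, at 2290 in the EC versus 1259 in the PVC. *Psma7* was the lowest alpha gene in the EC at 957, and *Psma3* the lowest in the PVC at 568. The beta ring genes had a higher median per exon base, of 2765 in the EC versus 1549 in the PVC, but not per coding base. *Psmb7*, which encodes the trypsin-like subunit, had the highest level at 3981 in the EC versus 2120 in the PVC, and *Psmb3*, which encodes a subunit without a catalytic site, the lowest at 901 and 512. Both *Psmb5*, which encodes the chymotrypsin-like subunit, and *Psmb6*, which encodes the caspase-like subunit, lay between these.

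Each core subunit is present in equal number in the barrel, so the spread of the 14 levels was examined. Per 1000 exon bases the highest level exceeded the lowest by 4.42-fold in the EC versus 4.14-fold in the PVC. Per 1000 bases of the longest coding sequence, the spread was 1.81-fold in the EC versus 1.72-fold in the PVC. On this coding scale only the divisor leaves out untranslated exons, since the counts are those of the whole gene. The coding sequences of the 14 genes ranged only from 603 to 831 bases, so this scale is close to counts not divided by length. *Psma3* was among the lower genes on the exon scale, and on the coding scale it stood at 5090 in the EC, behind only *Psmb1* at 5202 and *Psmb7* at 5815 of the 14. *Psma7* and *Psmb3* likewise came nearer to the others on the coding scale, at 3953 and 3370 in the EC. The ring medians changed order too. On the coding scale the alpha ring median was 3953 in the EC versus 2246 in the PVC. The beta ring median was lower, at 3736 and 1993. The order of the core subunits and of the ring medians thus depended on the length used. Neighbours in the order of the subunits cannot be called different, since the spread between mice was not analysed here.

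**Figure D2:**
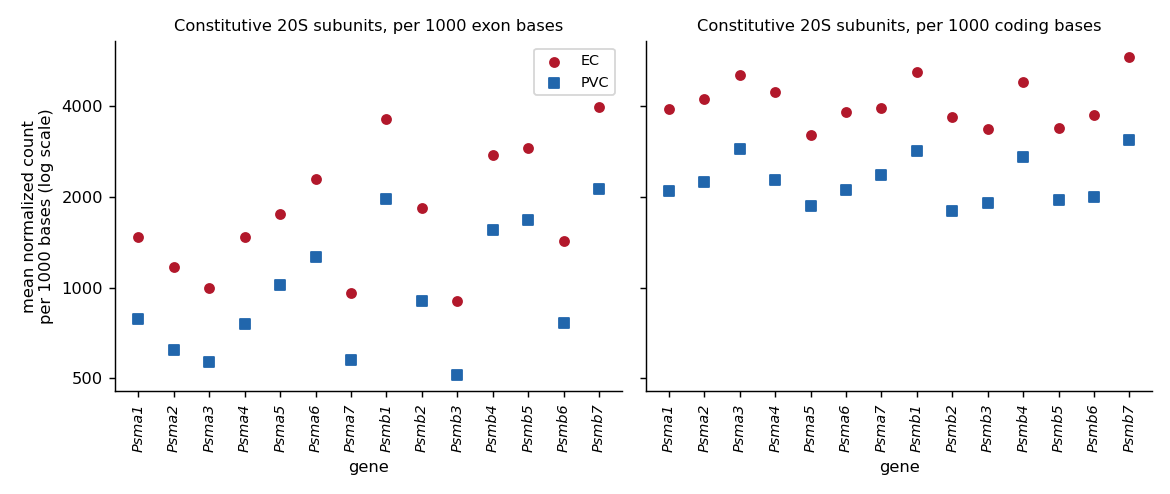
Levels of the 14 constitutive 20S core genes in the EC (circles) and PVC (squares), as mean normalised count per 1000 exon bases (left) and per 1000 coding bases (right) on the same log axis. Points are means over 29 libraries with no error bars; the highest EC value is 4.42 times the lowest on the left and 1.81 times on the right.

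Catalytic subunits of the immunoproteasome were compared with the standard subunits they replace. *Psmb8*, the counterpart of *Psmb5*, had a mean normalised count of 129 in the EC versus 63.0 in the PVC. Its level was 47.0 in the EC versus 23.02 in the PVC, against 2912 and 1677 for *Psmb5*, so that *Psmb8* reached 1.61% of *Psmb5* in the EC versus 1.37% in the PVC. *Psmb9*, the counterpart of *Psmb6*, had a mean normalised count of 70.6 in the EC versus 28.4 in the PVC. Its level of 19.3 in the EC versus 7.76 in the PVC was 1.35% and 1.02% of that of *Psmb6*, which was 1425 and 760. *Psmb10*, the counterpart of *Psmb7*, was far nearer to its standard subunit. It had a mean normalised count of 1238 in the EC versus 774 in the PVC and a level of 975 and 609, which was 24.5% of *Psmb7* in the EC versus 28.8% in the PVC. The standard gene thus exceeded its counterpart 61.9-fold, 73.8-fold and 4.08-fold in the EC for the chymotrypsin-like, caspase-like and trypsin-like sites. In the PVC the same values were 72.9-fold, 98.0-fold and 3.48-fold. On the coding scale *Psmb8* was at 4.58% of *Psmb5* and *Psmb9* at 2.88% of *Psmb6* in the EC, while *Psmb10* was at 26% of *Psmb7*. The order of the 3 pairs by distance between the genes was *Psmb9*, *Psmb8*, *Psmb10* in both regions with either length.

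**Figure D3:**
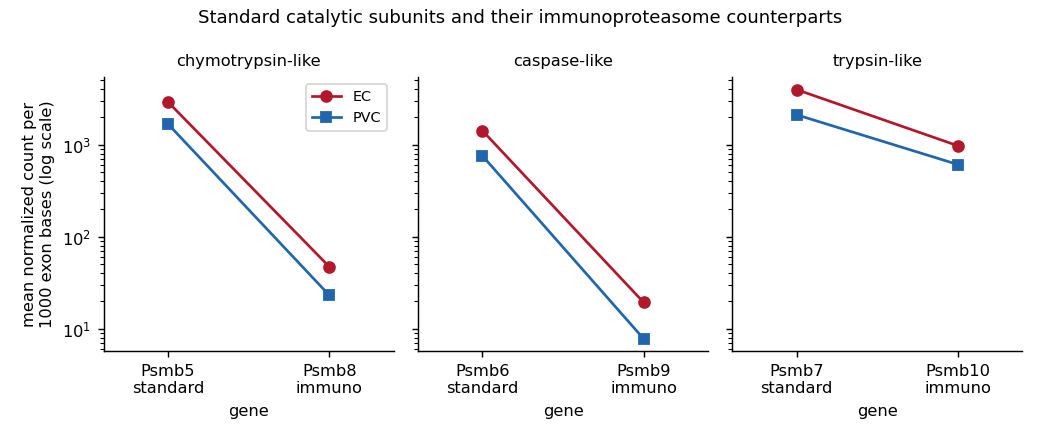
Level of each standard catalytic subunit gene and its immunoproteasome counterpart in the EC (circles) and PVC (squares), as mean normalised count per 1000 exon bases on a log scale. Lines join the genes of a pair, points are means over 29 libraries with no error bars, and the *Psmb7* to *Psmb10* line falls far less than the other lines.

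These genes differ in where they lie. On the NCBIM37 assembly *Psmb8* (chr17:34334666-34338399, plus strand) and *Psmb9* (chr17:34318932-34324709, minus strand) flank *Tap1*, which encodes a subunit of the peptide transporter that carries proteasome products to MHC class I molecules. *Psmb9* and *Tap1* overlap head to head by 212 bases, and *Psmb8* starts 495 bases after *Tap1*. *Psmb10* lies alone on another chromosome (chr8:108459628-108462292). Of the exon bases, 6.83% in *Psmb8* and 5.79% in *Psmb9* were shared with another coding gene. The library kit does not mark strand, so reads from such stretches cannot be assigned by strand, and the values of both genes are uncertain to that extent.

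The remaining tissue-restricted core genes were near the limit of detection. *Psmb11*, which encodes the catalytic subunit of the thymoproteasome, had a mean normalised count of 13.3 in the EC versus 10.6 in the PVC. It lies 7295 bases from *Psmb5* on chromosome 14 (chr14:55244147-55248393), and its level of 3.14 in the EC versus 2.49 in the PVC was the lowest of the 49. *Psma8*, which encodes the germ-line alternative to the *Psma7* subunit, had a mean normalised count of 12.2 in the EC versus 5.04 in the PVC, the only value below 10. Its level was 7.12 in the EC versus 2.94 in the PVC. Which gene was lowest depended on the length used. On the coding scale it was *Psmb11* in the EC, at 14.7, and *Psma8* in the PVC, at 6.72. Not divided by length, *Psma8* was below *Psmb11* in both regions.

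The 19S base contains a ring of ATPases, encoded by *Psmc1* to *Psmc6*, and their median level was 1796 in the EC versus 1049 in the PVC. *Psmc5* was the highest at 3686 in the EC versus 2344 in the PVC, and *Psmc2* the lowest at 781 and 439. On the coding scale the 6 ATPase genes lay within 1.58-fold of each other in the EC, and within 1.73-fold in the PVC. *Psmc5* was again the highest on that scale, and the lowest was *Psmc6* in the EC and *Psmc2* in the PVC. The 11 genes for the other cap subunits had a median level of 1234 in the EC versus 648 in the PVC, and each was above the median gene. *Psmd2*, which encodes the largest scaffold of the base together with *Psmd1*, was the highest of them at 2529 in the EC versus 1379 in the PVC. *Psmd11*, which encodes a lid subunit, was the lowest at 525 in the EC versus 269 in the PVC. Both ranks depended on the length used. On the coding scale the highest was *Psmd3* in the EC and *Psmd7* in the PVC, and the lowest was *Psmd12* in both regions. *Psmd14*, which encodes the deubiquitinase of the lid, stood at 960 and 527. Of the exon bases of *Psmd1* and *Psmc3*, 13.1% and 8.25% overlapped other coding genes.

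Counts not divided by length show what part of proteasome RNA each class made up. The constitutive core genes accounted for 32.0% of the members' summed mean normalised counts in the EC versus 31.6% in the PVC. The ATPase genes accounted for 18.9% in the EC versus 20.2% in the PVC, and the other cap subunit genes for 35.3% and 34.5%. The activators made up 7.84% in the EC versus 7.72% in the PVC. Each of the other classes stayed under the share of the activators.

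Activator caps open the core without ubiquitin or ATP. *Psme3*, which encodes the nuclear PA28 gamma, was the highest activator gene with a level of 1684 in the EC versus 848 in the PVC. On the coding scale it was the highest of all 49 members, at 6517 in the EC versus 3281 in the PVC. That rank depended on the length used. The longest coding sequence of *Psme3* has 762 bases, against 2949 bases of exon, while its counts are those of the whole gene. Not divided by length, its mean normalised count was 4966 in the EC versus 2500 in the PVC. That was below *Psmd2*, at 10211 and 5569. *Psme4*, which encodes PA200, had a level of 405 in the EC versus 267 in the PVC, so that *Psme3* exceeded it 4.16-fold and 3.18-fold. *Psme1* and *Psme2* encode the alpha and beta chains of the interferon-inducible PA28 and lie 5911 bases apart on chromosome 14. *Psme1* had a level of 727 in the EC versus 321 in the PVC, and *Psme2* of 432 and 235. The level of *Psme1* was 1.68 times that of *Psme2* in the EC and 1.37 times in the PVC. *Psme2* has a near copy listed under a pseudogene symbol, so its count is uncertain. How far the copy changed the count was not examined, and copies of the other members were not searched for. *Psmf1*, which encodes the inhibitor PI31, stood close to the median gene, at 270 in the EC versus 158 in the PVC.

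Assembly chaperone genes were lower in level than most genes of the core and cap. The core chaperones *Psmg1*, *Psmg2*, *Psmg3* and *Psmg4* had levels of 289, 414, 401 and 342 in the EC. In the PVC their levels were 171, 235, 233 and 154. The base chaperones *Psmd5*, *Psmd9* and *Psmd10* had levels of 579, 233 and 332 in the EC and 289, 123 and 185 in the PVC. *Psmd9* was below the median gene in both regions per exon base. The order of the base chaperones depended on the length used. On the coding scale *Psmd9* was the highest of them, at 1598 in the EC versus 842 in the PVC. *Psmd10* was then the lowest, at 704 and 393. *Psmc3ip* had a level of 51.0 in the EC versus 27.7 in the PVC, and 21.2% of its exon bases overlapped *Mlx*.

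The transcription factors NFE2L1 and NFE2L2 bind antioxidant response elements (AREs), which have been described in proteasome genes, and the promoters were searched for the core TGACNNNGC on both strands. RefSeq promoter windows, from 250 bases before to 50 bases after the start site, matched 41 of the 49 members, with 44 windows in all. The core was found in 6 of the 44 windows, those of *Psmb5*, *Psmb6*, *Psmc6*, *Psmd9*, *Psmd12* and *Psme4*. That is 13.6% of the windows, beside 12.4% of all 32851 windows in the RefSeq table. The windows that held it entirely before the start site are printed to show how its variable bases and its place differ among subunits of the core, the base and the lid and a base chaperone. Each is 30 bases from the RefSeq sequence of GRCm38.p6, read 5′ to 3′ along the gene's strand and found at 1 place on NCBIM37, with the core in capitals. In *Psmd12* and *Psmc6* the core is on the other strand, so the capitals show its reverse complement.
Psmb5: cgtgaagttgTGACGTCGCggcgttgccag
Psmb6: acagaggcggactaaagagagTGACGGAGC
Psmd9: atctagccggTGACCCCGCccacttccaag
Psmc6: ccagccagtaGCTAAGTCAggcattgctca
Psmd12: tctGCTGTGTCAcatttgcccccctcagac

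These lie at chr14:55236860-55236889 for *Psmb5* on the minus strand, and on the plus strand at chr11:70338829-70338858 for *Psmb6*, chr5:123678158-123678187 for *Psmd9*, chr14:45949262-45949291 for *Psmc6* and chr11:107340592-107340621 for *Psmd12*. All of these stretches are upstream of the annotated gene. With the start site counted as 0, the first base of the core was at -47 in *Psmb5*, -9 in *Psmb6* and -31 in *Psmd9*. In *Psmc6* and *Psmd12* the core was further away, and the printed capitals start at -227 and -247. Its first base, read on the other strand, was at -219 and -239. A match of these letters is not a measured binding site.

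The CCAAT box, which NF-Y binds, was found in 15 member windows, or 34.1%, beside 37.4% of all windows. The core of the interferon-stimulated response element, GAAANNGAA, which IRF factors bind, was found in 7 member windows, or 15.9%, beside 8.56% of all windows. These were the windows of *Psmb3*, *Psmb4*, *Psmc2*, *Psmd4*, *Psmd9*, *Psme1* and *Psmg4*. Restricted to the bases before the start site, the share was 6.82% in members and 7.13% in all windows, so that 4 of these 7 windows had matches that reached the start site or lay after it. No match of these letters was in the windows of *Psmb8*, *Psmb9* or *Psmb10*. The median GC content was 58.2% in member windows and 52.7% in all windows, and the median number of CpG sites was 19 and 7. *Psmb10* had the lowest GC content of the members at 45.7% with 3 CpG sites, and *Psma7* the highest at 77.0% with 41.

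**Figure D4:**
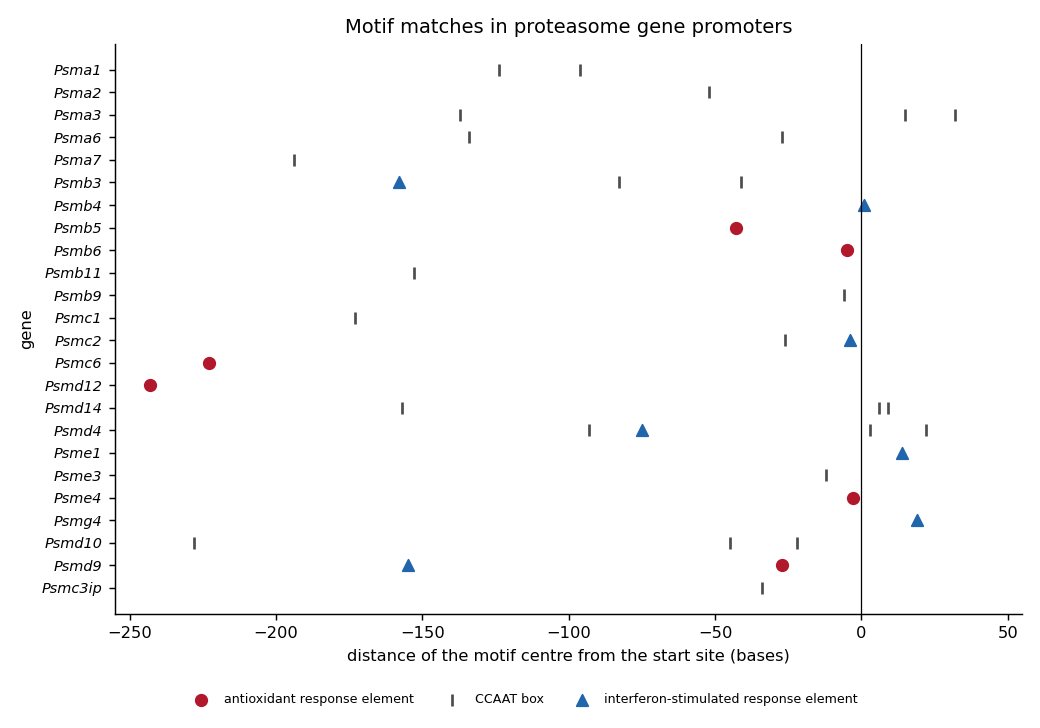
Distance in bases of each motif match (centre) from the start site, for members with a match in the RefSeq promoter window; circles are AREs, ticks are CCAAT boxes and triangles are interferon-stimulated response elements. The vertical line is the start site, and 6, 15 and 7 windows hold the respective motif.

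To compare the regions, which the authors normalised separately, the ratio of the EC mean to the PVC mean was scaled so that the median gene had a ratio of 1. This was done over the 15642 genes with a mean normalised count of at least 10 in both regions, and the unscaled ratio of the median gene was 1.86. The 48 members that passed this minimum had a median ratio of 0.977, with 17 above 1 and 31 below 1. With both regions scaled to the same total instead, the median was 0.994, with 22 above 1 and 26 below. On that scale 8592 of all 15642 genes were above 1, so 1 did not mark the median gene. With the median gene set to 1, proteasome genes were thus close to it. The 10th and 90th percentiles were 0.784 and 1.36 for all genes, and 0.900 and 1.08 for the members. Of the members, 2 were higher in the EC by more than 1.2-fold and 2 were lower, which is 4 of 48. Over all genes 17.5% were higher by that fold and 13.9% lower, or 31.4% in either direction. Most members stood high in level, while these genes reach down to a mean of 10. The spread and shares were not computed over genes of like level. The means have 1 value per region, so the differences were not tested.

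The members past the fold were *Psmb9* and *Psme1* on the higher side and *Psme4* and *Psmb11* on the lower side. *Psmb9*, with its mean normalised counts of 70.6 and 28.4, had a ratio of 1.34. *Psme1* had mean normalised counts of 1606 in the EC versus 709 in the PVC and a ratio of 1.22. For *Psme4* the mean normalised counts were 3395 and 2237, and the ratio was 0.818. *Psmb11*, at the edge of detection, had a ratio of 0.679. Of the members within the limits, the nearest to the higher one were *Psmg4* at 1.199 and, at some distance, *Psmb8* at 1.10 and *Psmb2* at 1.10. The nearest to the lower one were *Psmc5* at 0.847, *Psmb10* at 0.862 and *Psma7* at 0.898. The interferon-inducible members lay on both sides of the median gene: *Psmb9*, *Psmb8* and *Psme1* were above 1, *Psme2* was at 0.991 and *Psmb10* was below 1. With equal totals *Psme2* was above 1 as well, and *Psmg4* passed the fold at 1.22. The members past it then numbered 3 on the higher and 2 on the lower side, beside 2996 and 1969 of all 15642 genes. *Psma8*, below the minimum in the PVC, had a ratio of 1.30 on few counts.

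By class, all 6 ATPase genes were below 1, from 0.847 for *Psmc5* to 0.957 for *Psmc2*, with a median of 0.917 and none past the fold. The core genes had a median ratio of 0.983, with 6 of 14 above 1, and a range from 0.898 for *Psma7* to 1.10 for *Psmb2*. Among the other cap subunits 4 of 11 were above 1, the median was 0.987, and the range was 0.920 for *Psmd7* to 1.05 for *Psmd8*. The core chaperones had a median ratio of 0.939 and the base chaperones of 1.02. With both regions scaled to the same total, all 6 ATPase genes were still below 1, from 0.862 to 0.974. On that scale 7 of the 14 core genes and 6 of the 11 other cap subunits were above 1, beside 8592 of all 15642 genes.

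**Figure D5:**
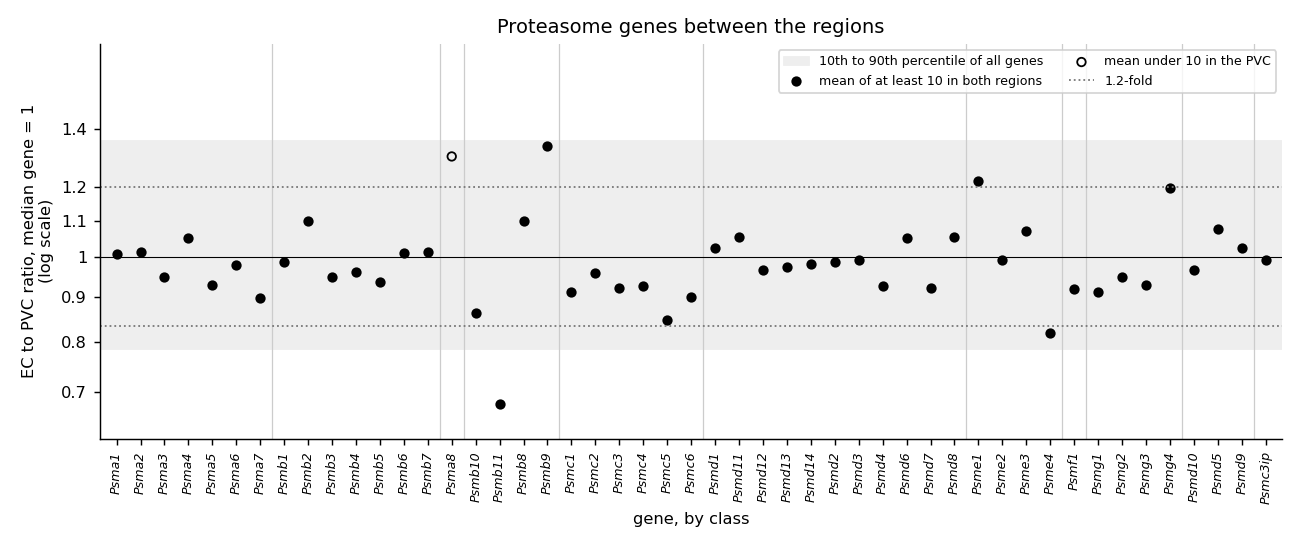
EC to PVC ratio of each member on a log scale, set so that the median gene is at 1, with genes ordered by class. Filled points have a mean of at least 10 in both regions, the open point (*Psma8*) does not, dotted lines mark 1.2-fold and the grey band is the 10th to 90th percentile of all genes; 4 filled points lie outside the dotted lines and all 6 *Psmc1* to *Psmc6* points lie below 1.

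The regions also differed in markers of cell types, and in bulk tissue fewer cells of a type and less RNA per cell cannot be told apart. All 4 oligodendrocyte markers were lower in the EC, with ratios from 0.324 to 0.387 and summed normalised counts of 39960 against 104885 on the common scale. Of 8 neuronal markers 7 were listed, at 0.394 to 1.10, with sums of 311473 and 381058. The 4 astrocyte markers ranged from 0.784 to 1.53, with sums of 53096 and 43788. The 4 microglial markers ranged from 1.02 to 1.11 and the 3 endothelial markers from 0.990 to 1.03. *Reln*, which superficial neurons of the EC express, had a ratio of 3.34, and the layer 4 markers *Rorb* and *Scnn1a* had ratios of 0.429 and 0.781, so the regions carried the marks of their labels. *C1ql2*, a marker of the dentate gyrus, had a ratio of 3.46 and *Prox1* of 0.841, while *Ttr* of the choroid plexus was at 0.221. The other choroid plexus markers were at 1.01 for *Kl* and, on few counts, 1.07 for *Folr1*. The T cell markers *Cd3e* and *Cd8a* had means of 3.35 and 3.73 in the EC and 0.547 and 1.73 in the PVC, while *Cd4*, the only T cell marker above the minimum in both regions, had 19.2 in the EC against 27.8 in the PVC and a ratio of 0.371. The germ cell marker *Ddx4* had a mean of 231 in the EC versus 88.1 in the PVC, *Prm1* of 12.5 and 5.75, and *Tnp1* was at 0.231 in the EC versus 0 in the PVC. The part of cell composition in the ratios of *Psmb9*, *Psme1*, *Psme4* and *Psma8* was not tested.

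Other genes of the pathway were listed by role, and 34 of 35 were in the files and detected in both regions. Their median level was 1120 in the EC versus 571 in the PVC, and their median ratio was 0.986, with 1 gene higher and 1 lower by more than 1.2-fold. *Nfe2l1* had a level of 3459 in the EC versus 1963 in the PVC, above most of the members, and a ratio of 0.949. *Nfe2l2* had a level of 213 in the EC versus 104 in the PVC. *Pomp*, which encodes the maturation factor of the core, stood at 3585 and 2296, in the range of the highest core subunits and far above the *Psmg* chaperones. Its place among the core subunits depended on the length used. Not divided by length, its mean normalised count was 2631 in the EC versus 1685 in the PVC, below *Psmb7* at 4833 and 2573. *Shfm1*, which encodes the smallest lid subunit and is not matched by the symbol rule, had a level of 2565 in the EC. *Usp14* and *Uchl5*, which encode the deubiquitinases that dock on the cap, had levels of 1122 and 742 in the EC. *Ubb*, a polyubiquitin gene, had a level of 32625 in the EC versus 17469 in the PVC.

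In the antigen presentation part of that list, *Tap1* had the highest ratio, at 1.47, with mean normalised counts of 228 in the EC versus 83.5 in the PVC. Its neighbour *Psmb9* had a ratio of 1.34, while *Psmb8* and *Tap2*, on the other side of *Tap1*, were at 1.10 and 0.917. *Tap1* also stood low in level, at 41.7 in the EC versus 15.3 in the PVC, close to *Psmb8*. *B2m*, the light chain of MHC class I, was at 3350 in the EC versus 2039 in the PVC, with a ratio of 0.885. *Irf1*, an interferon-induced transcription factor, had a ratio of 0.835. *Ubqln4*, which encodes a shuttle factor for ubiquitinated proteins, was the gene on the lower side at 0.829.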

How the data were processed

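Poly(A)+ RNA of 58 libraries, made with a kit that does not mark strand, was sequenced as single-end reads. Per the labels, alignment to mm9 (NCBIM37) was done with TopHat2 2.0.6 and Bowtie2 2.0.2.0, gene counts were made with HTSeq on a modified protein-coding annotation, and DESeq2 1.10.1 was run per region. The authors deposited 1 table per region, whose mean normalised count was treated here as a signal: counts divided by size factors and averaged over all 29 libraries of the region. The other 5 columns hold the authors' comparison of the genotypes (fold change, its standard error, test statistic, *p*-value and adjusted *p*-value) and were not used. Depth per library was not analysed here, so no counting interval is given.

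Exon lengths came from GENCODE vM1 (NCBIM37), joining overlapping identifiers of 1 symbol, and 81.1% of the symbols, or 95.5% of those detected in the EC, had a length. Promoter windows came from RefSeq (GRCm38.p6). Scripts used Python 3.11.15, numpy 2.4.6, pandas 2.3.3 and matplotlib 3.10.9 and were tested on simulated data. Detection required a mean of 10, and a ratio was past the fold beyond 1.2 in either direction. Genes named were all members by class and a list of other pathway genes and cell type markers. Members and lists were chosen with earlier results of these data known. Alternatives were other lengths, thresholds, scalings and promoter windows, and leaving out *Psmc3ip*; use of the coding length and leaving out *Psmc3ip* were added after the data were seen.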

Additional observations from a re-analysis of the deposited data

How the results depend on the processing

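With no values of single mice, a difference cannot be set against replicate error, and the low values of *Psma8* and *Psmb11* rest on few reads. No paired analysis was possible because each region has 1 mean per gene.

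The median level of the members depended on the length. Per base of the longest transcript it was 1554 in the EC versus 859 in the PVC, per coding base 2758 and 1595, not per length 2826 and 1554, and without *Psmc3ip* 1071 and 598. The spread of the core was 3.57-fold in both regions with the longest transcript, and 1.81-fold in the EC versus 1.72-fold in the PVC with the coding length. *Psmb8* was at 2.19% of *Psmb5* in the EC versus 1.86% in the PVC with the longest transcript, and at 4.58% and 3.90% with the coding length. *Psmb9* was at 0.887% and 0.668% of *Psmb6*, and at 2.88% and 2.17%. *Psmb10* was at 23.4% and 27.5% of *Psmb7*, and at 26% and 30.5%. The median EC to PVC ratio was 1.81 without scaling, 0.994 with equal totals and 0.975 without *Psmc3ip*. With a fold of 1.5, 0 members were past it, and with a minimum of 100 in both regions 2 were, *Psme1* and *Psme4*. Restricted to bases before the start site, 11.4% of member windows held the ARE core, beside 10.2% of all windows. The interferon-stimulated element was then in 6.82% of member windows, beside 7.13% of all windows. The number detected was 49 in both regions at a threshold of 1, and 45 in the EC versus 43 in the PVC at 100. Members past the fold numbered 5 with equal totals or with no minimum. The share of all genes was not computed for the fold of 1.5, the other minimum values or the other detection thresholds. The member counts at those settings therefore cannot be read against it. The coding length of the RefSeq proteins was not run, and the longest coding sequence of the annotation was used in its place.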
